A study of Mus musculus with 8 samples.

Results

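The macrophage genes described here are 38 genes named for their use as markers of macrophages and related phagocytes, read by gene symbol in an RNAseq count table of primary lung fibroblasts (pFBs). All 38 were found among the 54532 entries of the table, each on a single entry, and 32 of them had enough counts for the test between genotypes. The other 6 (Vsig4, Cd163, Marco, Fcgr1, Lst1 and Aif1) were too low for it and were compared on their own. The genes were grouped into 8 roles, from the lineage factor and growth factor receptor to the subunits of the phagocyte oxidase, and they lie on 16 chromosomes.

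The pFBs came from female mice of C57/black background in 2 genotypes. WT mice were wild type. HOMO mice were homozygous for a knock-in of human IGFBP5 (hIGFBP5), a secreted binding protein of insulin-like growth factors, driven by the ubiquitously active Ef1a1 promoter and therefore not restricted to fibroblasts. All cultures grew out of minced lung in serum-containing medium, none received a treatment, and a step that removes leukocytes is not given in the sources used here. Each genotype has 4 libraries, called WT1 to WT4 and HOMO1 to HOMO4, and n counts libraries, because the number of mice or cultures behind them is not given in the sources used here.

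Macrophages are resident phagocytes of the lung and of most tissues. They depend on signals through the receptor encoded by Csf1r, whose ligands are made by fibroblasts and other stromal cells, and their identity is set largely by the transcription factor PU.1, encoded by Spi1. They take up particles through scavenger, lectin and Fc receptors, degrade them in lysosomes and attack them with an oxidase, and adherent macrophages can persist in primary cultures of minced tissue.

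PU.1 binds a purine-rich element, the PU box, with the core letters GAGGAA, and many myeloid promoters carry it near the start of transcription. RefSeq promoter windows (GRCm38.p6, 250 bases before to 50 after each start) were at hand for 25 of the 38 members and for 27025 genes in all. GAGGAA, read on both strands, stood in the windows of 19 of the 25 members (76%) and of 31.3% of all genes. The longer GAGGAAGT, which contains the first motif, stood in 4 of 25 (16%) against 3.69% of all genes. For comparison, the AP-1 element TGACTCA was found in 1 of 25 (4%) against 5.95%, and the letters TATAAA in 4 of 25 (16%) against 15.7%. A match of letters is a description of the window and no binding was measured. The 120 bases before the start are shown for 4 members whose windows hold the PU box close to the start, and for Mpeg1, a highly expressed member whose window holds none. They are written 5′ to 3′ on the strand of the gene, and capitals mark GAGGAA or its reverse complement TTCCTC.
C1qb, chr4:136886201-136886320, minus strand: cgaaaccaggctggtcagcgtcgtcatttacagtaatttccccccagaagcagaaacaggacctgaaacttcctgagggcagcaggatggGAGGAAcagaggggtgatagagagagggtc
Cd53, chr3:106790150-106790269, minus strand: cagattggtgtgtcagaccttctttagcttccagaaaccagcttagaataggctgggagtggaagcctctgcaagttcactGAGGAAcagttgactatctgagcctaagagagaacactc
Itgam, chr7:128062520-128062639, plus strand: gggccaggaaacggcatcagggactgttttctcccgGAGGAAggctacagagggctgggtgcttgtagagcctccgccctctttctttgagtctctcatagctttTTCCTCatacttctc
Trem2, chr17:48346281-48346400, plus strand: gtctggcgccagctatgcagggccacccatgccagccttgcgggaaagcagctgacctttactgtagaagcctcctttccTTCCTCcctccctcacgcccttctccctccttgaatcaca
Mpeg1, chr19:12460650-12460769, plus strand: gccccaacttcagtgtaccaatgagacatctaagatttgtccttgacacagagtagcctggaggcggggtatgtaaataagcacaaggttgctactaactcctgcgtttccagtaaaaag

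Between 17236521 and 31987790 reads were counted per library, and 3 counts, taken as the floor of counting, corresponded to 0.0907 to 0.172 CPM (counts scaled to a common library size, with edgeR's TMM factors). This floor covers counting error only. The libraries of a genotype were unequally far apart: the biological coefficient of variation, the spread between libraries beyond counting error, was 7.65% for WT1 and WT2, 4.71% for HOMO1 and HOMO2 and 5.07% for HOMO3 and HOMO4, against 30.0 to 56.4% for all other pairs. The p-values below therefore measure the spread between libraries, which within these 3 pairs may be technical. The counts of the macrophage genes followed the same pairs.

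WT3 and WT4 carried most of the macrophage signal. The 38 genes together stood at 217 CPM in WT1, 265 in WT2, 3195 in WT3 and 2098 in WT4, and at 95.3 CPM in HOMO1, 104 in HOMO2, 314 in HOMO3 and 353 in HOMO4. The 2 genotypes overlapped, with WT1 and WT2 below HOMO3 and HOMO4. The mean was 1444 ± 1460 CPM in WT and 217 ± 136 in HOMO (SD, n = 4 each), so that the SD in WT was as large as the mean. WT3 and WT4 averaged 10.98 times the level of WT1 and WT2, and HOMO3 and HOMO4 averaged 3.35 times that of HOMO1 and HOMO2. As a share of all counted reads, the genes made up 0.296% in WT3 and 0.187% in WT4, between 0.0224 and 0.0366% in WT1, WT2, HOMO3 and HOMO4, and 0.00977 and 0.0107% in HOMO1 and HOMO2. In these bulk cultures, fewer macrophages and less RNA per macrophage cannot be told apart, and neither can be told apart from low expression in the fibroblasts themselves.

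**Figure D1:**
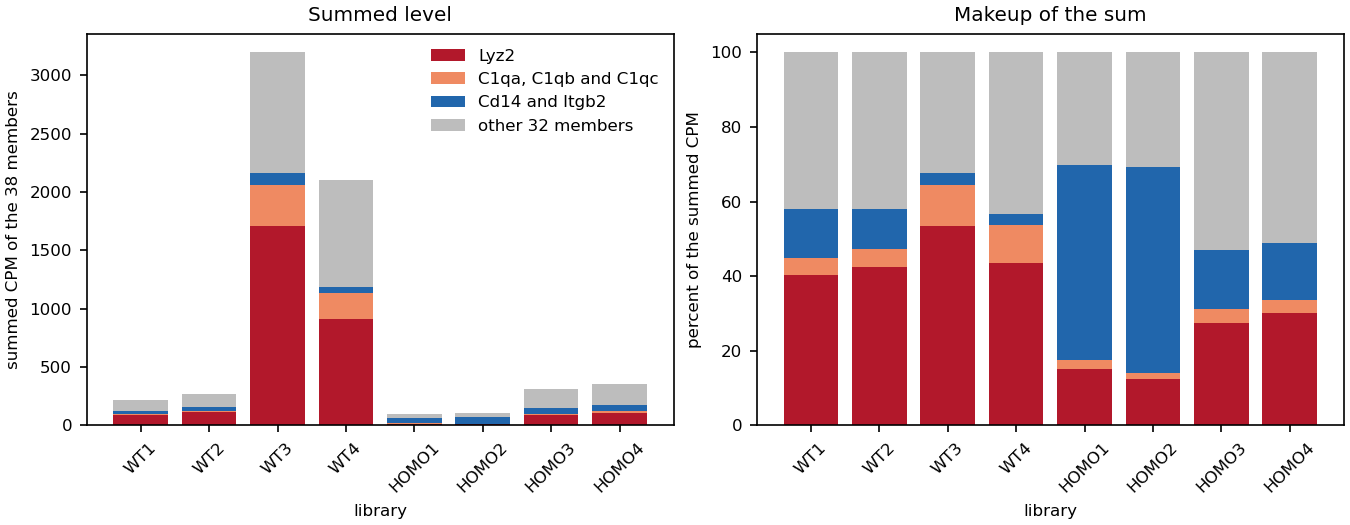
Stacked bars give, for each library, the summed CPM of the 38 macrophage genes (left) and its makeup in percent (right), divided into Lyz2, the 3 C1q chains, Cd14 with Itgb2, and the other 32 members. WT3 at 3195 and WT4 at 2098 CPM stand far above the other libraries, and in HOMO1 and HOMO2 most of the much smaller sum (52.2 and 55.2%) belongs to Cd14 and Itgb2.

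The makeup of the sum differed between libraries as well. Lyz2 made up 40.3% of it in WT1, 42.5% in WT2, 53.3% in WT3 and 43.4% in WT4, but 15.2% in HOMO1, 12.4% in HOMO2, 27.4% in HOMO3 and 30.0% in HOMO4. Cd14 and Itgb2 together made up 3.16 and 2.83% in WT3 and WT4, 10.8 to 15.8% in WT1, WT2, HOMO3 and HOMO4, and 52.2 and 55.2% in HOMO1 and HOMO2. Without these 2 genes, HOMO3 and HOMO4 stood at 6.13 times HOMO1 and HOMO2, and WT3 and WT4 at 12.1 times WT1 and WT2. The number of members above 1 CPM was 27 in WT1, 28 in WT2, 35 in WT3, 33 in WT4, 11 in HOMO1, 10 in HOMO2, and 31 in each of HOMO3 and HOMO4.

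The lineage factor and the identity receptors followed the summed level. Spi1 was counted at 2.02, 2.40, 19.0 and 13.8 CPM in WT1 to WT4 and at 0.0891, 0.393, 2.68 and 2.30 CPM in HOMO1 to HOMO4. Only 2 reads of it were counted in HOMO1, which is within the floor. Adgre1, the surface antigen by which mouse macrophages are usually recognised, stood at 3.60, 3.86, 37.98 and 54.3 CPM in WT and at 0.178, 0.755, 5.47 and 5.31 CPM in HOMO. Its log2 fold change of HOMO over WT was -3.10 (SE 1.20), with an adjusted p of 0.115 by edgeR's quasi-likelihood test, and that of Spi1 was -2.78 (SE 1.07, adjusted p = 0.113).

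Csf1r, the receptor for the macrophage growth factors CSF1 and IL-34, was spread less widely. It stood at 10.8, 11.9, 40.3 and 44.5 CPM in WT and at 5.03, 5.32, 26.9 and 23.8 CPM in HOMO, so that HOMO3 and HOMO4 were above WT1 and WT2 by 2.24 times. Its log2 fold change was -0.82 (SE 0.70, adjusted p = 0.449 by edgeR). In GENCODE M21, 15.1% of its exon bases overlap Hmgxb3 on the opposite strand, which had 509 to 1512 counts per library. The strand setting of the counting is not given in the sources used here, and the part of Hmgxb3 reads in Csf1r was not tested.

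The 3 chains of C1q, the recognition subunit of the classical complement pathway that tissue macrophages produce, had the largest ratios of WT3 and WT4 to WT1 and WT2 among the tested members. Their genes are neighbours within chr4:136880129-136898803 of GRCm38, all on the minus strand. C1qa stood at 3.54, 2.70, 135 and 69.6 CPM in WT1 to WT4 and at 1.11, 0.665, 3.64 and 3.15 CPM in HOMO1 to HOMO4. C1qb stood at 3.37, 5.14, 122 and 77.7 CPM in WT and at 0.356, 0.786, 4.71 and 6.11 CPM in HOMO. C1qc stood at 2.81, 4.93, 101 and 71.3 CPM in WT and at 0.712, 0.242, 3.34 and 3.75 CPM in HOMO. WT3 and WT4 were 22.3 to 32.8 times WT1 and WT2 in these genes, whereas HOMO3 and HOMO4 were 0.917 to 1.27 times WT1 and WT2.

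C1qa had the lowest adjusted p of all members, 0.0502 by edgeR, at a log2 fold change of -4.64 (SE 1.32), just short of the threshold of 0.05. C1qc was at -4.51 (SE 1.33, adjusted p = 0.0556) and C1qb at -4.14 (SE 1.34, adjusted p = 0.0735). Vsig4, a receptor of tissue macrophages for complement fragments, was nearly absent from these cultures, with 2 counts in WT4 and 0 in each of the other 7 libraries (two-sided exact permutation p = 1 for the difference in mean CPM). That p was fixed in advance, because with counts in a single library every assignment to groups gives the same absolute difference.

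Among the scavenger and pattern recognition receptors, Mrc1, the mannose receptor, stood at 2.70, 3.60, 46.8 and 31.9 CPM in WT and at 1.25, 0.755, 6.43 and 7.86 CPM in HOMO (log2 fold change -2.39, SE 1.08, adjusted p = 0.162 by edgeR). Trem2, a lipid-sensing receptor of macrophages, had a log2 fold change of -2.06 (SE 0.84, adjusted p = 0.131). The lectin receptors Clec4d and Clec7a (Dectin-1) were at -4.03 (SE 1.26, adjusted p = 0.0674) and -2.81 (SE 1.07, adjusted p = 0.110). Clec4d stood at 35.2 CPM in WT3 and 17.6 in WT4, and between 0.134 and 1.90 CPM in the other 6 libraries.

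Msr1, the class A scavenger receptor, was the one tested member whose levels did not overlap between genotypes. It stood at 5.11, 5.14, 35.4 and 21.8 CPM in WT and at 0.0891, 0.272, 4.45 and 4.50 CPM in HOMO. Its lowest WT library was thus close to its highest HOMO library, and its log2 fold change of -2.87 (SE 1.15) had an adjusted p of 0.126 by edgeR. Of all tested genes, 13.4% had every HOMO library below every WT library, against 1 of 32 members, and 0 members had every HOMO library above every WT library.

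Cd163 and Marco, receptors of resident tissue and alveolar macrophages, were at or near the floor. Cd163 reached 12 counts in WT4, 4 in WT2, 3 in HOMO1 and 1 in WT3 and in HOMO3, and was at 0 in WT1, HOMO2 and HOMO4 (exact permutation p = 0.286). Marco had 13 counts in WT3, 2 in WT4, 1 in HOMO3, 4 in HOMO4 and 0 in the other 4 libraries (exact permutation p = 0.714). The smallest p that the 70 assignments of 8 libraries to 2 groups of 4 allow is 0.0286, and these p-values are unadjusted over the 6 genes compared in this way.

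Cd14, the lipopolysaccharide co-receptor, did not follow the other members. It stood at 18.7, 15.4, 53.4 and 20.8 CPM in WT1 to WT4 and at 32.5, 37.7, 28.8 and 30.0 CPM in HOMO1 to HOMO4. WT3 was the highest library, but HOMO1 and HOMO2, the lowest for most members, came next, and WT4 lay below all HOMO libraries. Its mean was 27.1 ± 17.7 CPM in WT and 32.2 ± 3.94 in HOMO (SD, n = 4), with a log2 fold change of 0.25 (SE 0.37, adjusted p = 0.678 by edgeR), the only value above 0 among the 32 tested members.

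The signalling adaptors Fcer1g and Tyrobp, which couple Fc receptors, Trem2 and other receptors to the kinase Syk, stood 21.0 and 11.6 times higher in WT3 and WT4 than in WT1 and WT2. Fcer1g stood at 1.18, 2.06, 37.9 and 30.2 CPM in WT and at 1.11, 1.69, 6.33 and 5.91 CPM in HOMO (log2 fold change -2.25, SE 1.10, adjusted p = 0.193 by edgeR). In this gene WT1 was as low as HOMO1 and HOMO2. Tyrobp stood at 2.64, 2.78, 40.6 and 22.5 CPM in WT and at 0.356, 0.514, 4.71 and 4.50 CPM in HOMO (log2 fold change -2.78, SE 1.14, adjusted p = 0.133).

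The Fc receptor gene Fcgr3 had a log2 fold change of -3.08 (SE 1.17, adjusted p = 0.111 by edgeR), with 53.2 CPM in WT3, 34.8 in WT4 and 0.401 to 5.11 CPM in the other libraries. Fcgr1, the high-affinity IgG receptor, had 31 counts in WT3, 23 in WT4 and at most 4 in any other library (exact permutation p = 0.286). The inhibitory receptor Lilrb4a was at -1.43 (SE 0.91, adjusted p = 0.307). Its counts are uncertain, since 35.3% of its exon bases are shared on the same strand with Gm49339, which had 0 counts in every library, and since it has a close paralog, Lilr4b, with 25 to 1410 counts.

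The integrin chains separated from each other. Itgam, the alpha chain CD11b of the myeloid integrin Mac-1, stood at 0.562, 0.942, 13.7 and 7.38 CPM in WT and at 0.0891, 0.363, 2.43 and 3.60 CPM in HOMO (log2 fold change -1.81, SE 1.21, adjusted p = 0.331 by edgeR). The counts of Itgam are uncertain, since 68.7% of its exon bases are shared on the same strand with Gm49368, which had 0 counts in all libraries. Itgb2, the beta chain CD18 with which Itgam and the other leukocyte alpha chains pair, stood at 9.89, 13.2, 47.7 and 38.5 CPM in WT and at 17.3, 19.6, 21.0 and 23.5 CPM in HOMO (log2 fold change -0.43, SE 0.47, adjusted p = 0.569). In HOMO1 and HOMO2, Itgb2 had 389 and 648 counts where Itgam had 2 and 12. The alpha chains Itgax and Itgal, looked up after these values were seen, had 5 and 4, and 2 and 1 counts in the same libraries.

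The pan-leukocyte genes of this group were low outside WT3 and WT4. Ptprc, which encodes CD45, the phosphatase carried by all nucleated blood cells, stood at 0.955, 1.67, 13.3 and 22.1 CPM in WT and at 0.579, 0.453, 2.38 and 2.70 CPM in HOMO (log2 fold change -2.65, SE 1.05, adjusted p = 0.122 by edgeR). The tetraspanin Cd53 was at -2.34 (SE 0.80, adjusted p = 0.0854). Cd52, a surface glycopeptide of leukocytes, was at -3.21 (SE 1.25, adjusted p = 0.117), with 2 and 1 counts in HOMO1 and HOMO2. Lst1, a leukocyte transcript, had 27 counts in WT3, 22 in WT4 and at most 4 elsewhere (exact permutation p = 0.400).

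The cytoskeletal and endosomal members are, apart from Aif1, genes of the whole haematopoietic lineage. Laptm5, a lysosomal membrane protein of leukocytes, was the most abundant of them, at 89.0 CPM in WT3, 78.9 in WT4, 8.03 to 12.6 in WT1, WT2, HOMO3 and HOMO4, and 1.07 and 0.967 in HOMO1 and HOMO2 (log2 fold change -2.83, SE 1.12, adjusted p = 0.123 by edgeR). Rac2, the haematopoietic Rac GTPase, was at -2.12 (SE 1.14, adjusted p = 0.235) and the actin-binding Coro1a at -1.20 (SE 1.00, adjusted p = 0.439). Aif1, which encodes the macrophage marker IBA1, had 27 counts in WT3, 26 in WT4 and at most 4 in the others (exact permutation p = 0.429).

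Lyz2, the lysozyme of macrophages and granulocytes, was by far the most abundant member. Per kilobase of exon it reached 1295 CPM in WT3, ahead of C1qa at 130, Ctss at 127 and C1qb at 112. Lyz2 stood at 87.5, 113, 1704 and 911 CPM in WT1 to WT4 and at 14.5, 12.9, 86.0 and 106 CPM in HOMO1 to HOMO4. WT1 and WT2 were level with HOMO3 and HOMO4 (0.959 times), whereas HOMO1 and HOMO2 were at 0.137 times WT1 and WT2. Its log2 fold change was -3.68 (SE 1.15, adjusted p = 0.0665 by edgeR).

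The other lysosomal and antimicrobial genes were ordered alike. Cd68, a glycoprotein of macrophage lysosomes, stood at 6.46, 9.72, 58.5 and 57.3 CPM in WT and at 3.83, 3.57, 10.6 and 14.2 CPM in HOMO (log2 fold change -2.04, SE 0.80, adjusted p = 0.119 by edgeR). The protease cathepsin S, Ctss, was at -3.62 (SE 1.32, adjusted p = 0.0994), the pore-forming Mpeg1 at -2.40 (SE 0.95, adjusted p = 0.122) and the lysosomal nuclease Pld4 at -1.95 (SE 1.02, adjusted p = 0.221). Of the phagocyte NADPH oxidase, the membrane subunit Cybb was at -2.32 (SE 1.04, adjusted p = 0.160), and the cytosolic subunits Ncf1 and Ncf4 at -2.45 (SE 1.06, adjusted p = 0.150) and -2.14 (SE 0.92, adjusted p = 0.149). All 3 were below 1 CPM in HOMO1 and HOMO2.

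**Figure D2:**
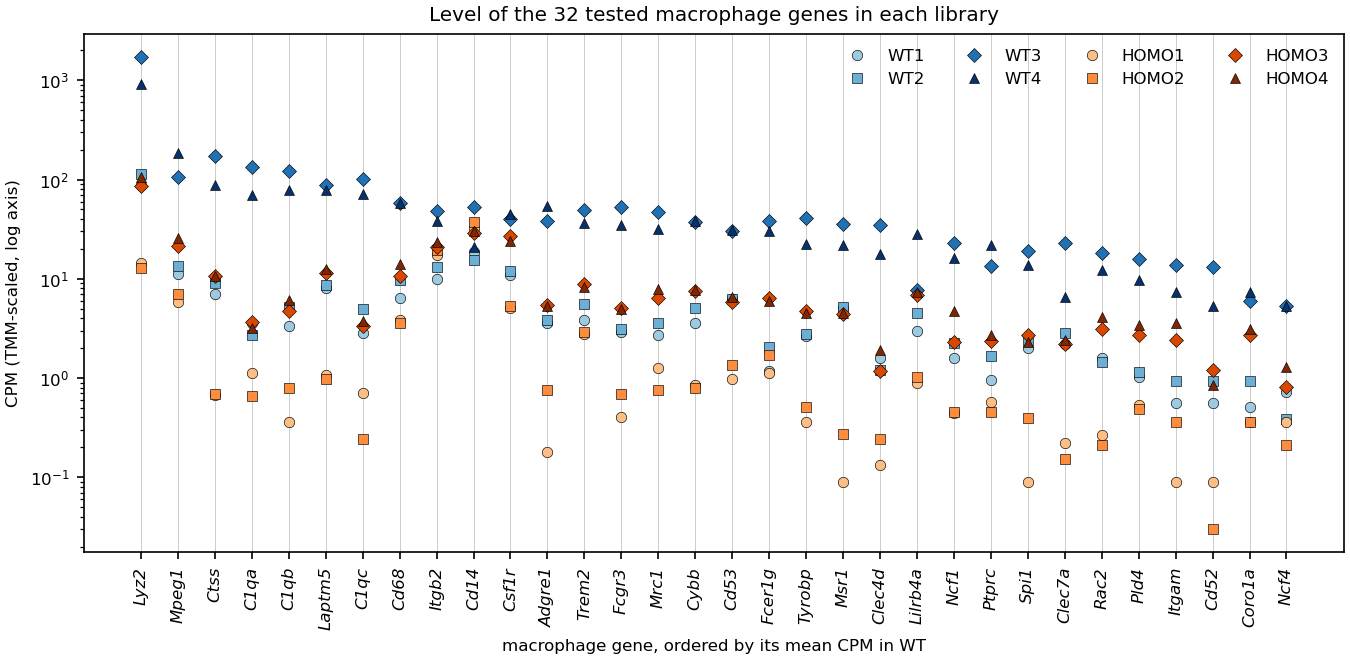
Points give the CPM (TMM-scaled, log axis) of each of the 32 tested macrophage genes in each library, with WT in blue and HOMO in orange and a separate shape for each library of a genotype. The dark blue diamonds and triangles of WT3 and WT4 lie on top for every gene except Cd14, and the light orange points of HOMO1 and HOMO2 at the bottom for most.

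The order of the libraries was nearly the same for every member. In 31 of the 32 tested members, all but Cd14, WT3 and WT4 were the 2 highest libraries, against 17.7% of all tested genes. In 29 members, all but Cd14, Itgb2 and Fcer1g, HOMO1 and HOMO2 were the 2 lowest, against 16.8% of all tested genes. HOMO3 and HOMO4 were both above WT1 and WT2 in 22 members, against 37.8% of all tested genes, and both below them in Msr1 alone. These orders describe the libraries and were noted after their levels were seen.

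The comparison of HOMO with WT asks whether constitutive hIGFBP5 goes along with other levels of these genes. A gene was called when its adjusted p was under 0.05 and it differed by more than 0.6 on the log2 scale. By this rule edgeR called 0 of 32 members, against 12.1% of all tested genes. At an unadjusted p under 0.05 there were 21 members, all lower in HOMO, against 32.3% of all tested genes. The log2 fold change was below 0 in 31 of 32 members and its median was -2.42, against -0.04 over all tested genes. Standard errors ran from 0.37 for Cd14 to 1.34 for C1qb.

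The calls differed between tools and between sets of libraries. DESeq2 called 21 of the 32 members, all lower in HOMO, against 19.2% of all genes it tested. limma-voom with sample weights, which gave WT3 a weight of 0.0927 and WT4 0.164 against 2.24 for WT1 and 8.14 for WT2, called 2 members, Cd14 and Itgb2, both higher in HOMO, against 25.3% of all genes. Its median log2 fold change of the members was -0.52, with 10 above 0 and 22 below. Leaving out single libraries, edgeR called C1qa and C1qc without WT1, C1qa without WT2, Cd14 (higher in HOMO) without WT3, and 0 members without any one of the other 5 libraries. Over all genes, these fits called 1422 of 14591 without WT1, 1192 of 14380 without WT2 and 2192 of 14615 without WT3. Without one of the other 5, they called from 507 of 14405 (HOMO1) to 1848 of 14449 (WT4).

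Leaving out pairs of libraries, chosen after the data were seen, moved the result further. Without WT3 and WT4 the median log2 fold change of the members was -0.04, with 15 members above 0 and 17 below, and 2 were called, both higher in HOMO, against 20.9% of all tested genes. Cd14 was then at 0.92 (SE 0.15, adjusted p = 0.00716 by edgeR) and Itgb2 at 0.81 (SE 0.18, adjusted p = 0.0176). Both values depended on the libraries kept. With all libraries Cd14 was at 0.25 and Itgb2 at -0.43, and without WT3 alone they were at 0.81 and -0.019. Cd14 was above 0 in each of these fits, and Itgb2 only without both WT3 and WT4, its 2 highest libraries. Without WT3 and WT4 the WT side was only the near-identical pair WT1 and WT2, so the SE and p of that fit may measure technical spread. Without WT1 and WT2, 35 members passed the filter, and 26 of these were called, all lower in HOMO, against 22% of all tested genes, with a median of -3.31. The 26 include Fcgr1, Aif1 and Lst1, which were too low for the test with all libraries. These 3 passed the filter only through WT3 and WT4, with at most 4 counts in any HOMO library. Their calls therefore followed from the libraries kept and add no support. Without HOMO1 and HOMO2 the median was -1.75 with 0 of 35 called (0 at an unadjusted p under 0.05), against 76 of all 14786 tested genes. Without HOMO3 and HOMO4 the median was -4.54 with 1 of 35 called, Msr1, against 913 of all 15155 tested genes. The median of the tested members was thus far below 0 with every pair left out except WT3 and WT4. Apart from the fit without WT3 and WT4, these medians cover 35 members, with Fcgr1, Aif1 and Lst1 among them. Without HOMO1 and HOMO2, the median of -1.75 is the value of Fcgr1 itself, so these medians do not compare the same members.

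**Figure D3:**
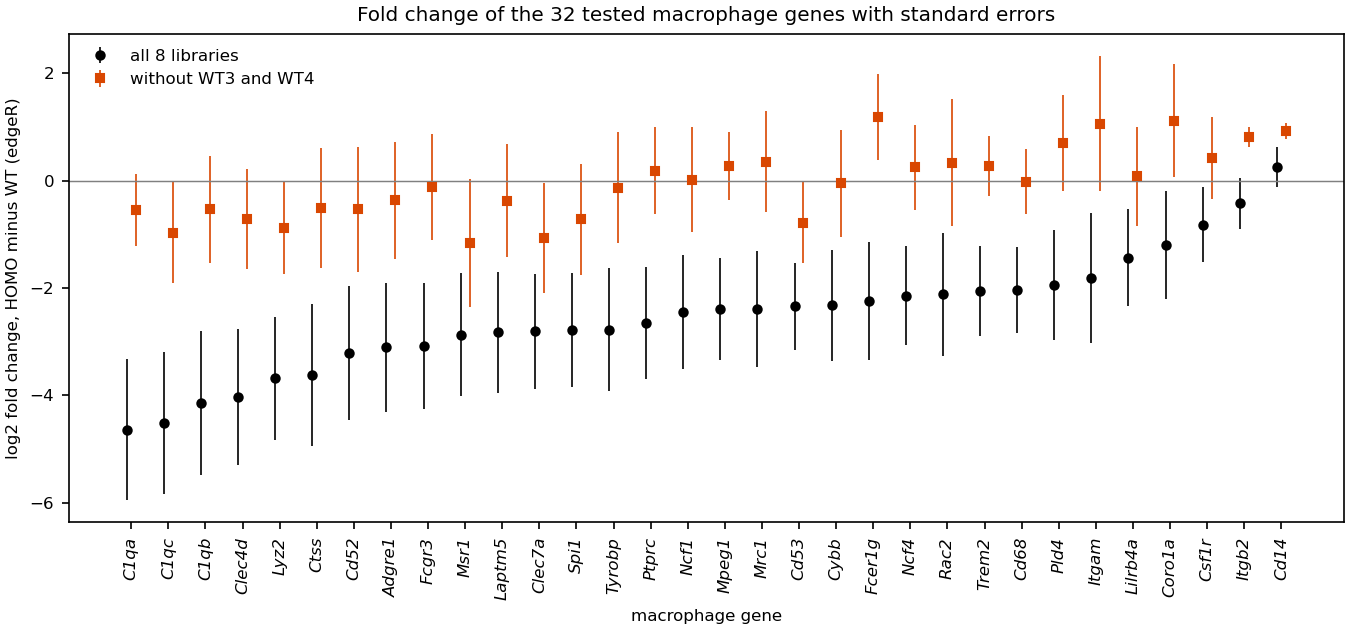
Log2 fold changes (HOMO minus WT) of the 32 tested macrophage genes with their standard errors, from edgeR with all 8 libraries (black circles) and without WT3 and WT4 (orange squares), ordered by the first. With all libraries 31 of 32 values are below 0 with a median of -2.42, and without WT3 and WT4 the values scatter around 0 with a median of -0.04.

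WT3 and WT4 were not copies of each other. The level in WT4 was 0.68 times that in WT3 in the median of the 35 members with more than 3 counts in both, but the ratio ranged from 0.289 for Clec7a (95% interval 0.240 to 0.347, exact binomial, counting error only) to 3.64 for Lilrb4a (3.02 to 4.41). Cd14 was at 0.390 (0.350 to 0.434), C1qa at 0.516 (0.485 to 0.549) and Lyz2 at 0.535 (0.526 to 0.544). Mpeg1 was at 1.74 (1.65 to 1.84), Ptprc at 1.66 (1.42 to 1.94) and Adgre1 at 1.43 (1.30 to 1.57). Lyz2, C1qa and the lectin receptors were therefore higher in WT3, whereas the identity marker Adgre1 and the pore-forming Mpeg1 were higher in WT4, by more than counting error. With a single library of each kind, whether this exceeds the spread between cultures cannot be tested.

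**Figure D4:**
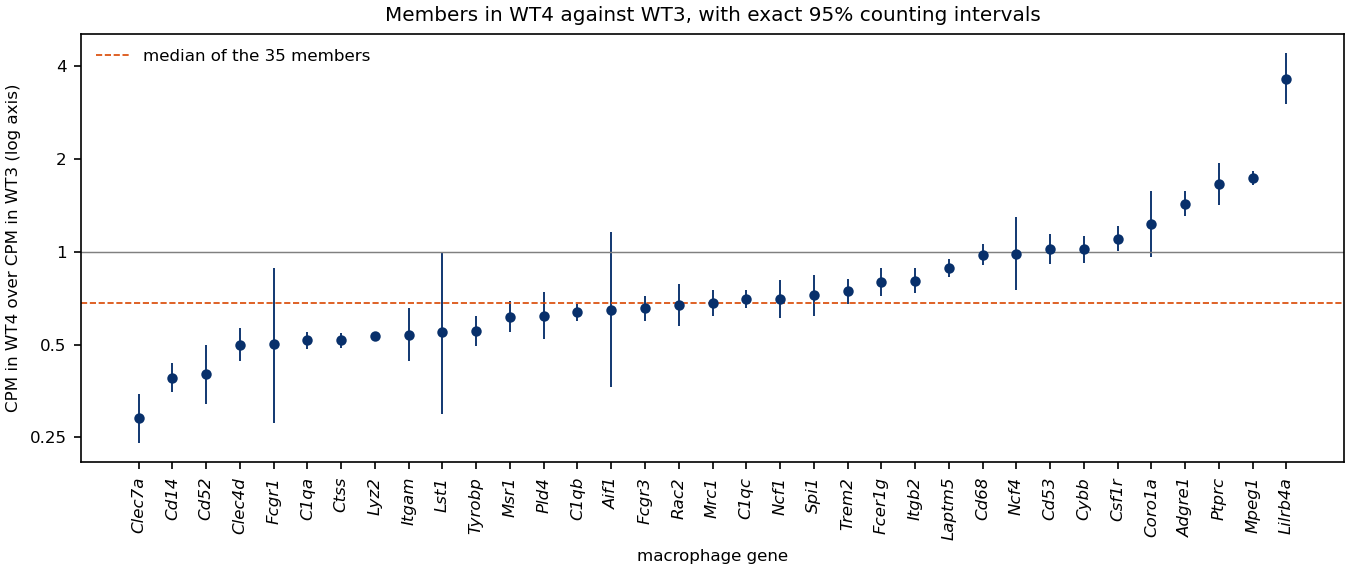
Ratio of the CPM in WT4 to that in WT3 (log axis) for the 35 macrophage genes with more than 3 counts in both, with exact 95% binomial intervals that cover counting error only. The dashed line is the median, and the members run from 0.289 for Clec7a to 3.64 for Lilrb4a.

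Macrophage genes outside the 38 members were looked at next. Of 65 such genes, 55 were tested, of which 0 rose and 2 fell in HOMO by edgeR (3.64%, against 12.1% of all tested genes). At an unadjusted p under 0.05 there were 21 (38.2%, against 32.3%), all lower in HOMO except Maf. The median log2 fold change of the list was -2.20. In 45 of the 55, WT3 and WT4 were the 2 highest libraries, against 17.7% of all tested genes. The 2 called genes were not among these 45. With the 3 pairs of near-identical libraries (WT1 and WT2, HOMO1 and HOMO2, HOMO3 and HOMO4) each summed into 1, edgeR called 0 of 16130 tested genes, so that these and every later call of a single gene outside the members were lost in that fit. Syk, the kinase downstream of Fcer1g and Tyrobp, stood at 29.3, 24.7, 11.2 and 22.2 CPM in WT and at 0.223, 0.363, 3.09 and 4.05 CPM in HOMO (log2 fold change -3.52, SE 0.86, adjusted p = 0.0322 by edgeR). Apobec1, an RNA-editing enzyme, stood at 31.1, 30.0, 19.7 and 20.3 CPM in WT and at 5.48, 5.77, 6.68 and 8.66 CPM in HOMO (log2 fold change -1.93, SE 0.24, adjusted p = 0.00350).

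Some genes of that list were not low where the members were. Maf, a transcription factor of macrophages that other cells also use, was named after its values were seen and stood at 27.5, 33.0, 243 and 175 CPM in WT and at 648, 654, 315 and 295 CPM in HOMO (log2 fold change 1.996, SE 0.71, adjusted p = 0.0956 by edgeR). It was highest in HOMO1 and HOMO2, the libraries lowest in most members. The sum of the list, 1017 and 1012 CPM in HOMO1 and HOMO2, was mostly made of this gene.

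Markers of macrophage subsets were uneven. Of 12 genes of alveolar macrophages, 5 were tested and 0 called by edgeR (2 at an unadjusted p under 0.05), and Ear1, Chil3, Car4 and Krt79 had 3 or fewer counts in every library. Others of this list were well counted: Cd9, a tetraspanin that many cells express, stood at 53.1 to 477 CPM, and Atp6v0d2, a subunit of the vacuolar proton pump, at 40.8 and 18.2 CPM in WT3 and WT4 and at 0.312 to 2.70 CPM elsewhere (log2 fold change -3.46, SE 1.21, adjusted p = 0.0895). Of 12 genes of interstitial and perivascular macrophages, Cd209f, Cd209d and Timd4 had 0 counts in all libraries. Ms4a7 stood at 22.7 and 25.5 CPM in WT3 and WT4 and at 0.223 to 0.901 CPM in the other 6 libraries (log2 fold change -4.68, SE 1.33, adjusted p = 0.0508 by edgeR), which is the pattern of the C1q genes.

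Among 8 monocyte genes, Ly6c2, Ccr2, Treml4 and F10 had 3 or fewer counts in every library. Plac8 fell by 2.84 on the log2 scale (SE 0.55, adjusted p = 0.0148 by edgeR), from 72.4, 66.0, 214 and 71.8 CPM in WT to 7.44, 8.25, 18.9 and 24.6 CPM in HOMO. The antigen presentation genes of MHC class II were low, at 13.5 to 44.5 CPM summed over 7 genes in WT and 6.01 to 17.4 in HOMO, with 0 of 3 tested genes called. Of 10 cytokine and enzyme genes of macrophage activation, 0 reached the test, and Retnla, Il1b, Il12b and Ccl22 had 0 counts throughout.

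Genes of lipid-laden macrophages were abundant, but fibroblasts express many of them too. All 10 were tested, and WT3 and WT4 were the 2 highest libraries in 9, against 17.7% of all tested genes. By edgeR 1 was called (10%, against 12.1% of all tested genes). This gene, Lpl, lipoprotein lipase, rose by 4.14 on the log2 scale (SE 0.70, adjusted p = 0.00973), from 21.6, 28.7, 175 and 66.0 CPM in WT to 1651, 1702, 878 and 901 CPM in HOMO. It was thus highest in the libraries that were lowest in most members.

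Markers of neutrophils and lymphocytes summed to little in every library. The 10 neutrophil genes summed to 0.1001 to 1.43 CPM per library, with Ly6g and Mpo at 0 counts in all. The 12 T and NK cell genes summed to 0.286 to 2.53 CPM, with Cd3d, Cd3g and Cd2 at 0, and the 7 B cell genes to 0.0891 to 2.46 CPM, with Cd79b and Blk at 0. The 9 erythroid and platelet genes summed to 0.0773 to 1.11 CPM, with Hba-a2 and Gp1bb at 0. In these 4 lists together, 1 gene (Trac) was tested and 0 were called by edgeR, also at an unadjusted p under 0.05. Of 8 dendritic cell genes, 2 were tested, and Flt3, Clec9a, Ccr7, Siglech and Cd209a had 3 or fewer counts in every library. Xcr1 rose by 2.12 on the log2 scale (SE 0.56, adjusted p = 0.0420), with 6 to 16 counts in WT and 18 to 68 in HOMO. The 8 mast cell and basophil genes summed to 24.7 CPM in the lowest library and 44.2 CPM in WT1, mostly from Gata2, which other cells also express. Cpa3 fell by 4.06 (SE 0.64, adjusted p = 0.00789) and Gata2 by 0.72 (SE 0.12, adjusted p = 0.0102).

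Stromal and lung structural genes were checked beside them. The 12 fibroblast genes summed to 19144 to 25814 CPM in WT and 19239 to 32114 CPM in HOMO, several times the members in every library, with Pdgfrb (-0.97, SE 0.22, adjusted p = 0.0251) and Vim (-0.65, SE 0.17, adjusted p = 0.0430) lower in HOMO by edgeR. The 2 called genes were 16.7% of the list, against 12.1% of all tested genes. WT3 and WT4 were the 2 highest libraries in 2 of these 12 genes, against 17.7% of all tested genes. The 9 endothelial genes summed to 2.53 to 9.39 CPM, with 0 of 2 tested genes called (0 at an unadjusted p under 0.05). The 9 epithelial genes summed to 0.281 to 15.4 CPM, and Cdh1 rose by 2.77 (SE 0.76, adjusted p = 0.0462). The part of any of these in the levels of the macrophage genes was not tested.

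**Figure D5:**
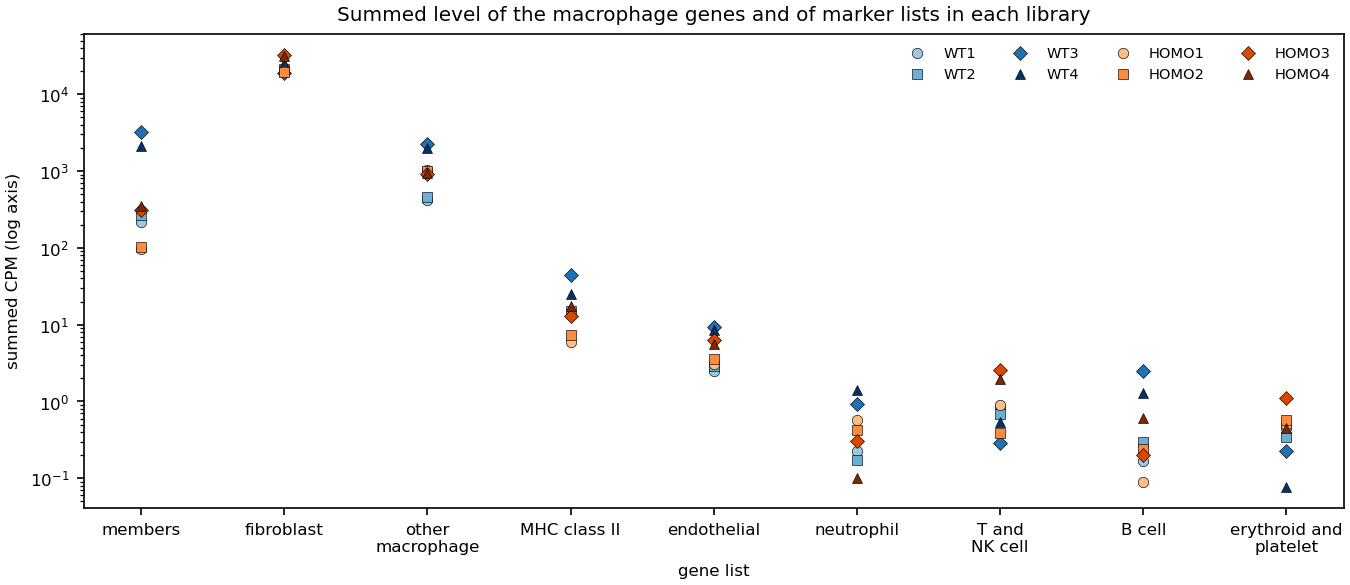
Points give the summed CPM (log axis) of the 38 macrophage genes (members) and of 8 marker lists in each library, with WT in blue and HOMO in orange. The members span 95.3 to 3195 CPM between libraries, the fibroblast genes 19144 to 32114 CPM, and neutrophil, T and NK cell, B cell, and erythroid and platelet genes stay below 3 CPM.

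The growth factors and attractants of macrophages were measured in the same cultures. Csf1, which encodes the main ligand of Csf1r, fell by 1.40 on the log2 scale (SE 0.22, adjusted p = 0.00789 by edgeR), from 2494, 2485, 1978 and 3762 CPM in WT1 to WT4 to 1121, 1065, 931 and 959 CPM in HOMO1 to HOMO4. The genotypes did not overlap, and the lowest of the WT libraries was WT3, in which the members were highest. The chemokine Ccl7 fell by 2.41 (SE 0.48, adjusted p = 0.0162), from 108, 96.5, 197 and 34.1 CPM to 14.0, 17.6, 25.2 and 25.1 CPM. Il34, the second ligand of Csf1r, stood at 14.6 CPM in WT3 and at 0.181 to 0.812 CPM in the other 7 libraries (log2 fold change -3.31, SE 1.27, adjusted p = 0.113). Of the 10 genes of this list, 8 were tested, 2 fell and 0 rose (25%, against 12.1% of all tested genes). Neither of the 2 was called with the 3 near-identical pairs summed. At an unadjusted p under 0.05 by edgeR there were 7 (87.5%, against 32.3% of all tested genes), and the median log2 fold change of the list was -1.46.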

How the data were processed

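The 4 WT and 4 HOMO RNAseq libraries of pFBs from female mice were analysed at the level of the deposited gene counts. Per their methods, the authors cleaned the reads with fastp, mapped them to mm10 using STAR and summarised them by gene using featureCounts, and the deposited values are raw counts. The submitters' processing notes also list CASAVA and DESeq2. Versions, the gene annotation and the strand setting of the counting are not given in the sources used here. The name of the deposited table speaks of outliers taken out, and whether a library was removed is not stated. The number of per-sample columns left unused was 0.

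Counts were compared with the quasi-likelihood F test of edgeR 4.0.16 (R 4.3.3) after TMM scaling and filterByExpr by genotype, which left 14150 genes, with Benjamini-Hochberg adjustment over all of them. Thresholds were those of the study. For the 6 members outside this test, the difference in mean CPM was set against all 70 assignments of libraries to groups (exact permutation, two-sided). DESeq2 1.42.0 and limma 3.58.1 (voom with sample weights), RLE scaling, other filters, the replicate number as a block, sums of near-identical libraries, and fits without each library or pair of libraries were the alternatives, and the pairs left out were added after the data were seen. The scripts were tested on simulated counts. Positions and exon lengths come from GENCODE M21, in which all 38 members were matched, and promoters from RefSeq. Levels, exact tests and plots used Python 3.11.15 with scipy 1.17.1, pandas 2.3.3 and matplotlib 3.10.9.

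The members, the gene lists and the tests were chosen with earlier results of these data known. All members are named, with values per library for the defining markers. From each of the 17 other lists, the called genes with the largest fold changes are named, up to 3, beside Csf1, Il34 and markers at or near 0 counts. Maf, Ms4a7, Atp6v0d2, Cd9, Itgax, Itgal, Trac and the genes that overlap or resemble a member were named after their values were seen. Same-numbered libraries did not deviate together (correlations of their deviations from the genotype means -0.12 to 0.01), so the numbers were not taken as pairs. The human transgene was not analysed here, and a few genes of the lists are not reported here.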

Additional observations from a re-analysis of the deposited data

How the results depend on the processing

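The number of members called by edgeR, 0, became 1 with RLE scaling (C1qa), 2 without a filter on low counts (C1qa and C1qc), 1 with a filter of CPM above 1 in at least 4 libraries (C1qa), 21 with DESeq2 and 2 with limma-voom (Cd14 and Itgb2, higher in HOMO). It was 0 to 2 when single libraries were left out. It was 2 without WT3 and WT4, 26 of 35 without WT1 and WT2, and 1 without HOMO3 and HOMO4. It was 0 without HOMO1 and HOMO2 or with near-identical libraries summed, where 3 WT and 2 HOMO units remain. In the summed fit 10 of 35 members were at an unadjusted p under 0.05 by edgeR, and the share over all its genes is not given here. With the replicate block it was 20, all lower in HOMO, although the numbers do not pair the libraries and no WT library correlated best with the HOMO library of its own number. Over all tested genes the main fit called 1716 of 14150, RLE scaling 1737 of 14150 and DESeq2 2695 of 14064. The number was 1443 of 27324 without a filter, 1678 of 12900 with the CPM filter and 3573 of 14150 with limma-voom. The replicate block called 947 of 14150, and near-identical libraries summed 0 of 16130. Fits without single libraries called 507 to 2192 genes. Without pairs it was 3117 of 14912 (WT3 and WT4), 3271 of 14861 (WT1 and WT2), 913 of 15155 (HOMO3 and HOMO4) and 76 of 14786 (HOMO1 and HOMO2). The cause of these differences was not tested. The median log2 fold change of the members, -2.42, was -0.036 without WT3 and WT4 and -4.54 without HOMO3 and HOMO4 (over 35 members). It was -0.52 with limma-voom, and -2.98 to -1.90 without single libraries. Of the 65 other macrophage genes, 2 were called, against 20 by DESeq2, 0 with near-identical libraries summed, and 1 to 5 without single libraries.

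Of 606 log2 fold changes of single members under the alternatives, 507 kept their direction and their side of the threshold, 75 kept their direction and passed it, and 24, of 15 members, changed sign. Without WT3 and WT4, these were Csf1r (0.42), Mrc1 (0.35), Trem2 (0.26), Fcer1g (1.19), Lilrb4a (0.080), Itgam (1.06), Itgb2 (0.81), Ptprc (0.18), Coro1a (1.12), Rac2 (0.33), Mpeg1 (0.28), Pld4 (0.70), Ncf1 (0.015) and Ncf4 (0.24). Without WT1 and WT2 it was Cd14 (-0.20), and with limma-voom they were Csf1r (0.21), Trem2 (0.048), Fcer1g (0.80), Itgam (0.28), Itgb2 (0.69), Coro1a (0.58), Mpeg1 (0.080), Pld4 (0.39) and Ncf4 (0.44). Counting error limits the values of the members at or under 3 counts, which were 10 in HOMO1 and 2 to 6 in each other library.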
